A study of Homo sapiens with 6 samples.

Results

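Heterogeneous nuclear ribonucleoproteins (hnRNPs) and serine/arginine-rich (SR) proteins are the 2 large families of RNA-binding proteins that decide, together with the spliceosome, which exons of a transcript are kept. Their genes were read in RNA-seq libraries of Ishikawa cells, an established line from a human endometrial adenocarcinoma that carries estrogen receptor alpha. Genes were taken by symbol: every row of the count table beginning with HNRNP, or made of SRSF and a number, without pseudogenes and antisense genes. This gave 38 genes of 26364, 12 of them SR genes and 26 hnRNP genes. Of these, 33 passed the filter on low counts, which kept 15611 genes in all.

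In all, 3 lines gave 6 libraries. One was the parental line, and the others were a pair of clones of it with ETV4 knocked out, here clone 1 and clone 2. ETV4 is a transcription factor of the ETS family. For each line, cells given 0.1% DMSO as vehicle and cells given 10 nM estradiol (E2) were sequenced once, so the clones had n = 2 libraries per treatment and the parental line had 1. All cells had first been held in hormone-depleted medium. The labels give the treatment as 8 h in one field and 1 h in another. No library repeats a line under the same treatment, each knockout line is a single clone, and a difference between the parental line and the clones cannot be told apart from a difference between cell lines. The p-values measure the spread between these libraries, except where the E2 change of the clones is set against that of the parental line. There each parental library is alone in its group, and spread is measured between the clones only.

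As background, SR proteins mostly bind enhancer sequences in exons and recruit spliceosome parts, while many hnRNPs bind silencers, coat introns or block splice sites. Both kinds also act in RNA export, stability and translation. Many of their genes hold a highly conserved alternative exon whose inclusion sends the transcript to nonsense-mediated decay, by which the proteins limit their own level. Gene-level counts do not separate those transcript forms. In bulk RNA, fewer cells of a type and less RNA per cell cannot be told apart.

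The libraries held 28037392 to 36829479 counts and 17755 to 18658 detected genes. ETV4 had 586 counts in the parental DMSO library and 1063 in the parental E2 library, and 71 to 122 in the 4 clone libraries, or 9.77% to 17.4% of the parental CPM (a gene's count scaled to library size after TMM) under the same treatment. The 7 epithelial and endometrial markers summed to 2487 to 3421 CPM, with a range of 3206 to 3421 in DMSO and 2487 to 2716 in E2. The 5 hematopoietic markers summed to 0.950 to 1.65 CPM, with CD3E at 0 in every library, and the 4 endothelial markers to 1.65 to 4.57 CPM. The 6 fibroblast markers summed to 46.7 to 86.1 CPM, most of it COL1A1, with COL3A1 at 7.93 and 9.73 CPM in the parental libraries and 1.33 to 3.33 in the clones, while DCN and LUM stayed under 0.1 CPM. The part of these markers in the results below was not tested. The parental DMSO library stood apart: among all tested genes it was the highest of the 6 libraries for 31.6% and the lowest for 32.3%. Of the 33 tested splicing factor genes it was the highest for 12 and the lowest for 12.

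Several of these genes have near-copies, and the handling of reads that fit more than 1 gene is not given in the sources used here. Each coding sequence was divided into all its stretches of 50 bases, and stretches that occur letter for letter in another annotated gene, pseudogenes included, were counted (GENCODE v29). Of 37 genes with an entry, HNRNPUL2 shared 96.3% of its stretches, in all cases with the read-through gene HNRNPUL2-BSCL2. SRSF1 shared 90.3% with 1 uncharacterised locus, HNRNPA3 89.8% with 12 genes, HNRNPA1 83.3% with 53 genes, HNRNPC 53.7% with 9 genes and HNRNPA1L2 51.3% with 59 genes. HNRNPCL2 shared 52.1% with 6 genes. The levels of these 7 genes are therefore uncertain. With fewer shared stretches the same holds for HNRNPL (45.5%), HNRNPK (28.5%) and SRSF6 (27.8%). SRSF2, SRSF4, SRSF5, SRSF7, SRSF9, SRSF12, HNRNPA0, HNRNPA2B1, HNRNPDL, HNRNPF, HNRNPH3, HNRNPLL, HNRNPM and HNRNPUL1 had no shared stretch.

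**Figure D1:**
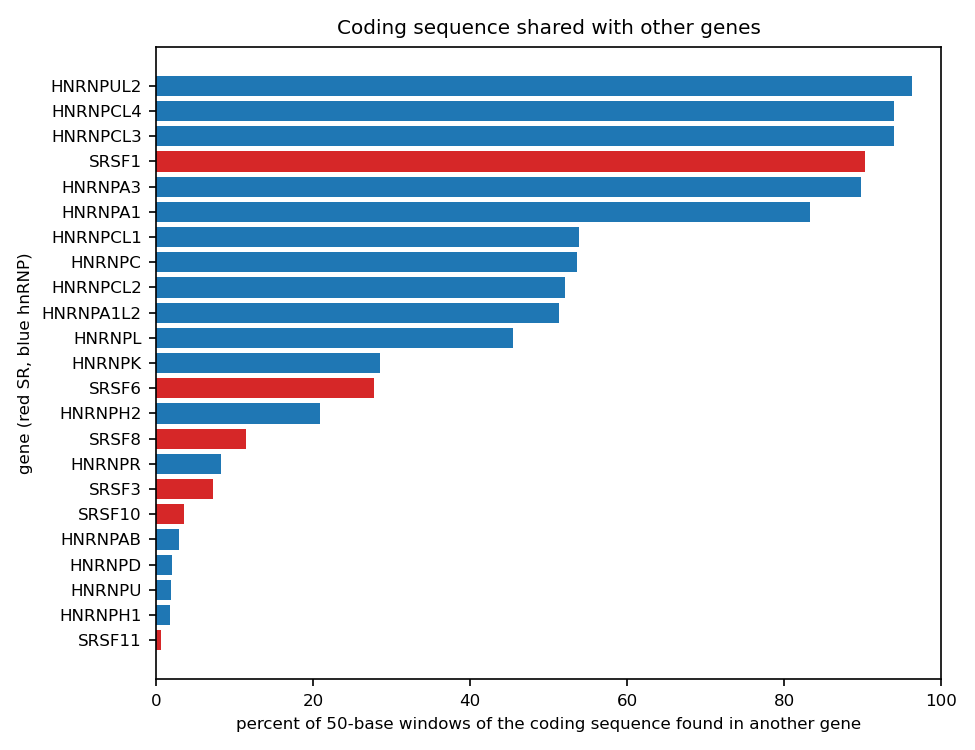
Share of each gene's 50-base coding stretches (x axis, percent) that occur letter for letter in another annotated gene, 1 bar per gene. HNRNPUL2, HNRNPCL3, HNRNPCL4, SRSF1 and HNRNPA3 lie at 89.8% or more. Genes without a shared stretch, 6 of the 12 SR genes among them, have no bar.

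The closest pair that the results turn on is HNRNPA1, a shuttling hnRNP that silences exons, and HNRNPA1L2, an HNRNPA1-like gene. The 963-base coding sequence of HNRNPA1L2 was set against the HNRNPA1 coding form of the same length, and 15 bases differed (98.44% identical).

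Not every gene had enough counts to be compared. HNRNPCL1, HNRNPCL3, HNRNPCL4 and HNRNPUL2-BSCL2 had 0 counts in all 6 libraries. HNRNPCL3 and HNRNPCL4 each share 94% of their stretches with other genes, and HNRNPUL2-BSCL2 shares sequence with HNRNPUL2. With the handling of such reads not given, 0 counts need not mean absent expression. HNRNPH2, an HNRNPH1 relative, had 2 to 6 counts, and a read-through gene and another 2 genes share 20.9% of its 50-base stretches. These 5 genes were not tested. HNRNPCL2, an HNRNPC-like gene, passed the filter only through the parental DMSO library, where it had 50 counts (1.68 CPM) against 0 in the parental E2 library and 1 in each clone library. Any difference that involves that library had to be large for HNRNPCL2, so where it is counted below it is counted as a tested gene and supports nothing.

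The other 32 genes were read in every library at 3.895 CPM or more. The 38 genes together took 1.095% of all counts in the parental DMSO library, 1.35% in the parental E2 library and 1.16% to 1.28% in the clone libraries. Scaled to the median length of each gene's transcripts, the mean level over the 6 libraries was highest for HNRNPC at 669 CPM per kb, a protein that forms tetramers on nascent RNA. HNRNPK, which binds poly(C) stretches, followed at 425, and the prototype SR protein SRSF1 at 420. HNRNPA2B1 (323) and HNRNPH1 (316), which binds runs of G, came next. On this scale the lowest library of HNRNPC lay above the highest of every other gene, while the ranges of the next 4 genes overlapped, so these cannot be ordered. At the lower end of the SR genes lay SRSF12 at 5.26 and SRSF10 at 2.96 CPM per kb, both described as splicing repressors. Among the tested hnRNP genes other than HNRNPCL2, HNRNPUL2 was lowest at 8.28 CPM per kb, and HNRNPLL followed at 24.4. The places of HNRNPC, SRSF1, HNRNPUL2 and, with fewer shared stretches, HNRNPK are as uncertain as their levels. How reads from shared stretches were counted is not given.

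**Figure D2:**
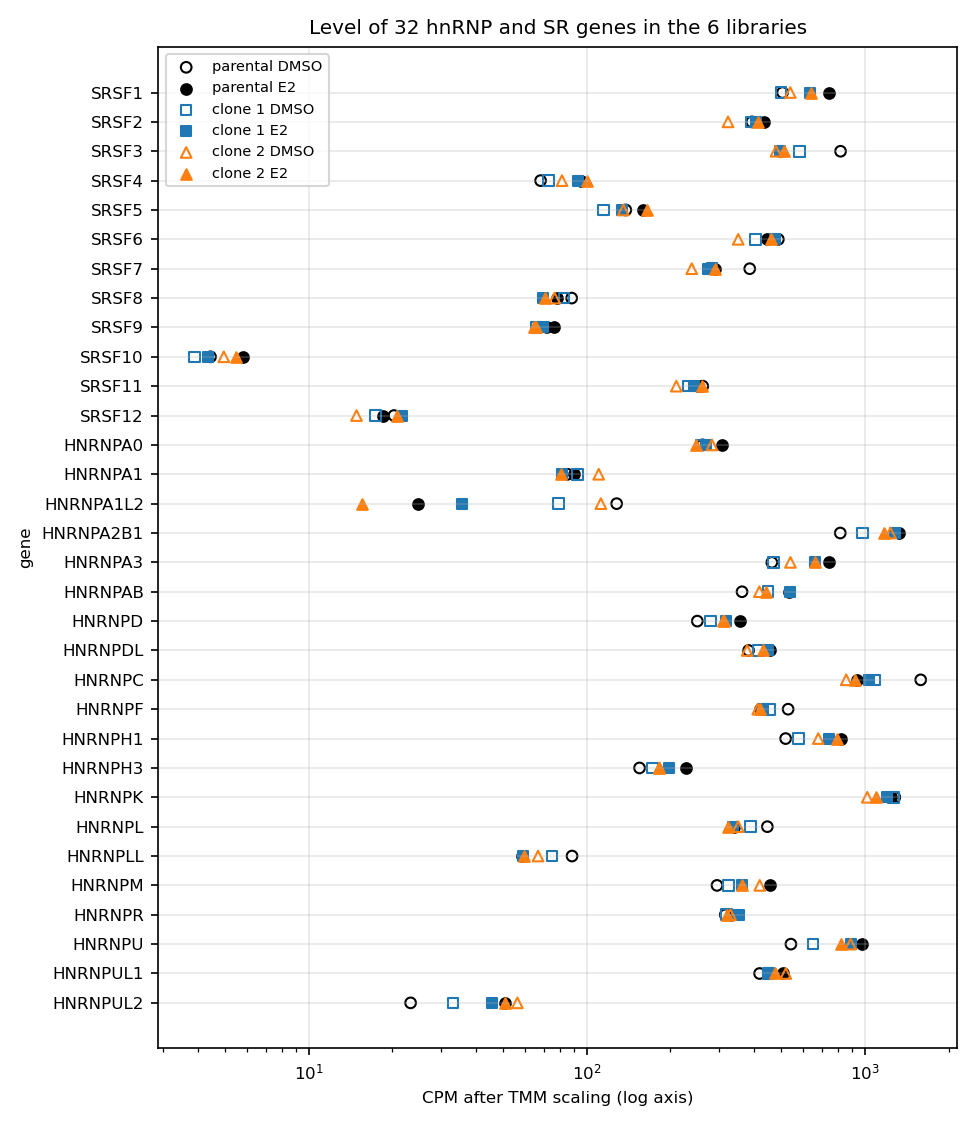
Level of each gene in each of the 6 libraries (x axis, CPM on a log scale), coloured by line and treatment, for the 32 tested genes other than HNRNPCL2. Levels run from 3.895 CPM for SRSF10 to 1588 CPM for HNRNPC, and the parental DMSO library is often the outermost point.

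The first comparison asked which of these genes differed between E2 and DMSO over the 3 lines. Of 33 genes tested, 1 passed: HNRNPA1L2 fell (edgeR quasi-likelihood test with Benjamini-Hochberg adjustment over all genes), against 1.13% of all tested genes. With the line as a block the same gene was the only one of the 33, against 2.46% of all genes. At an unadjusted p under 0.05 there were 7 of 33 (HNRNPA1L2, HNRNPA3, HNRNPCL2, HNRNPH1, HNRNPLL, SRSF1 and SRSF4), or 21.2% against 20.4% of all genes. The fitted log2 changes of the 33 had a median of 0.16, beside -0.02 for all tested genes. All 3 E2 libraries lay above all 3 DMSO libraries for 7 genes, SRSF1, SRSF2, SRSF4, HNRNPA3, HNRNPD, HNRNPDL and HNRNPH1 (21.2%), and all tested genes gave 13.8%. All 3 lay below for HNRNPA1L2, HNRNPL and HNRNPLL (9.09%), where all genes gave 10.5%. E2 was above DMSO within each of the 3 lines for 10 genes, which added HNRNPAB, SRSF5 and SRSF10 to those 7 (28.2% of all genes), and below in each for 4 genes, HNRNPA1L2, HNRNPL, HNRNPLL and SRSF8 (24.5% of all genes).

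HNRNPA1L2 measured 128 CPM (parental), 78.9 (clone 1) and 112 (clone 2) under DMSO, and 24.8, 35.5 and 15.5 CPM under E2. Every E2 library was below every DMSO library. The fitted log2 change was -2.06 (SE 0.33, adjusted p = 0.0444), and the ratios by line were -2.36 (parental), -1.15 (clone 1) and -2.85 (clone 2). HNRNPA1 itself, measured at 85.3, 92.5 and 110 CPM in DMSO and 90.03, 81.8 and 81.1 in E2, showed no separation of the treatments. Its fitted change was -0.19 (SE 0.14, adjusted p = 0.457). Because their coding sequences are so alike, both genes were also counted as 1. The summed counts were 6351, 6118 and 6565 in DMSO for the parental line, clone 1 and clone 2, and 4298, 3430 and 2819 in E2. All E2 sums lay below all DMSO sums, yet the summed row did not pass, with a log2 change of -0.89 (SE 0.16, adjusted p = 0.0602) and -0.88 with the line as a block (adjusted p = 0.0540). The share of the sum assigned to HNRNPA1L2 was 60.0% in the parental line under DMSO (95% Wilson interval 58.8% to 61.2%) and 21.6% under E2 (20.4% to 22.9%). In clone 1 the share was 46.0% (44.8% to 47.3%) and 30.3% (28.8% to 31.85%), and in clone 2 it was 50.45% (49.2% to 51.7%) and 16.0% (14.7% to 17.4%). These intervals cover counting error only, and the part of read assignment in this result was not tested. The call was lost with 1 library left out in 4 cases: without the clone 1 DMSO library (adjusted p = 0.0650), the clone 2 E2 library (0.142), the parental DMSO library (0.210) or the parental E2 library (0.204). In the clones alone it was -1.92 (adjusted p = 0.216), with the direction kept throughout.

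**Figure D3:**
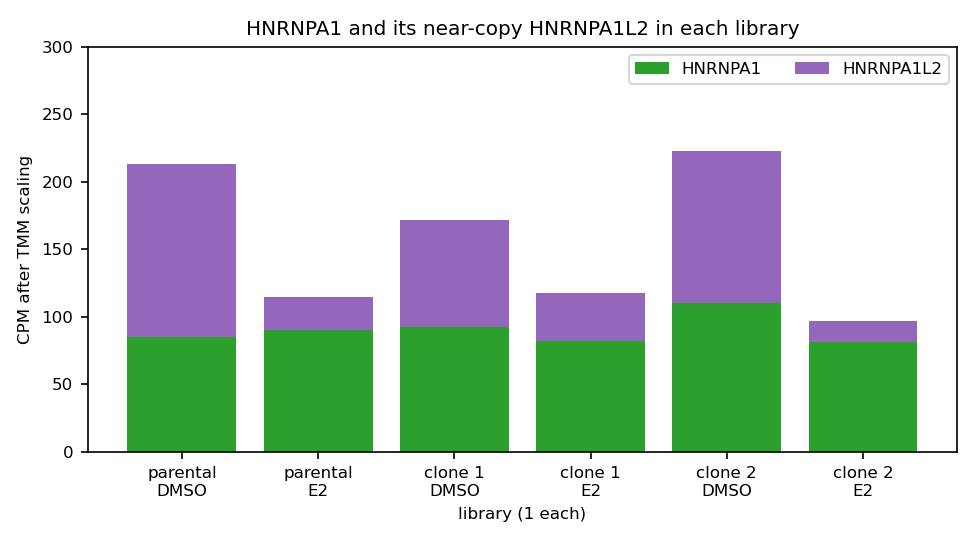
CPM (y axis) of HNRNPA1 and HNRNPA1L2, and of their sum, in the DMSO and E2 libraries of each line. HNRNPA1L2 and the sum are lower in E2 in all 3 lines, and HNRNPA1 is not.

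Among the 12 SR genes none passed the test. The median fitted log2 change was 0.17. The best separated were SRSF1, which promotes use of nearby splice sites through exonic enhancers, and SRSF4. SRSF1 stood at 506, 499 and 539 CPM in DMSO (parental, clone 1, clone 2) and 743, 634.5 and 640 in E2, so the treatments did not overlap. Its fitted change was 0.38 (SE 0.13, adjusted p = 0.198). SRSF4 went from 68.2, 73.0 and 81.4 CPM in DMSO to 95.7, 93.2 and 101 in E2, again without overlap (log2 0.38, SE 0.12, adjusted p = 0.170). SRSF2, which marks exons and keeps its own mRNA in check through decay, was at 392, 389 and 322 CPM in DMSO and 435, 407 and 412 in E2. The gap between its treatments was small beside the spread in DMSO (log2 0.18, SE 0.13, adjusted p = 0.435). SRSF5 was at 138, 115 and 135 CPM in DMSO and 159, 133 and 164 in E2, with an overlap between clone 1 in E2 and the other lines in DMSO. SRSF8, SRSF9 and SRSF10 had fitted changes of -0.18 (SE 0.10), 0.05 (SE 0.11) and 0.23 (SE 0.21).

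The lines did not go the same way for several other SR genes. SRSF3, the smallest SR protein and one that also aids mRNA export, was at 818 CPM in parental DMSO and 496 in parental E2. In the clones it was at 583.5 and 479 CPM in DMSO and 497 and 513 in E2, all far below the parental DMSO value. Its fitted change was -0.29 (SE 0.18, adjusted p = 0.381). SRSF7, its close relative, had the same outlying library, with 385.5 CPM in parental DMSO against 290 in parental E2 and 238.5 to 289.8 in the clones. SRSF6 was at 489 CPM in parental DMSO and 446 in parental E2, whereas the clones were at 404 and 350 in DMSO and 474 and 460 in E2. SRSF12 was at 20.3 CPM in parental DMSO and 18.5 in parental E2, with 17.4 and 14.9 in the clones in DMSO and 21.7 and 20.8 in E2. SRSF6, SRSF11 and SRSF12 were thus below DMSO in the parental line and above it in both clones. With HNRNPA1 and HNRNPCL2, 5 of 33 genes (15.2%) had a parental ratio opposite in sign to both clones, beside 13.2% of all genes.

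The A/B and D hnRNPs hold 8 genes, all tested. Apart from HNRNPA1L2 none passed. HNRNPA3, an A/B protein, stood at 463, 469 and 540 CPM in DMSO and 746, 663 and 661 in E2 (log2 0.49, SE 0.14, adjusted p = 0.157). DESeq2 called it (adjusted p = 0.0202). No E2 library overlapped a DMSO library, although 89.8% of its coding stretches are shared. HNRNPA2B1, which is abundant and also sorts RNAs for transport, was at 816, 980 and 1236 CPM in DMSO and 1330, 1288 and 1172 in E2. Parental and clone 1 values were higher in E2, and clone 2 was not (log2 0.33, SE 0.18, adjusted p = 0.329). HNRNPD, also known as AUF1 and a binder of AU-rich decay elements, and its relative HNRNPDL were slightly higher in every E2 library, with fitted changes of 0.23 (SE 0.14) and 0.19 (SE 0.12). HNRNPAB and HNRNPA0 had fitted changes of 0.30 (SE 0.15) and 0.03 (SE 0.13).

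HNRNPC, which binds runs of U, was at 1588 CPM in parental DMSO and 937.5 in parental E2, while the clones were at 1085 and 857 in DMSO and 1033 and 919 in E2. The parental DMSO library was thus above the other 5, which overlapped (log2 -0.25, SE 0.20, adjusted p = 0.495). In the F/H group, whose members bind G runs, HNRNPH1 was at 519, 577 and 680 CPM in DMSO and 822, 741 and 797 in E2, with no overlap (log2 0.41, SE 0.15, adjusted p = 0.207). HNRNPH3 was at 155, 172 and 183 CPM in DMSO and 228, 197 and 182 in E2, and the clone 2 values were level (log2 0.25, SE 0.14). HNRNPF, the third of the group, had a fitted change of -0.13 (SE 0.13).

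Among K, L, M and R, the lower values in E2 belonged to HNRNPL, which binds CA repeats, and to its paralog HNRNPLL. HNRNPL was at 446, 389 and 350 CPM in DMSO and 339, 334 and 321 in E2. HNRNPLL was at 88.5, 75.1 and 66.8 CPM in DMSO and 58.5, 58.8 and 59.3 in E2, so both genes were lower in all E2 libraries. Neither passed, with fitted changes of -0.25 (SE 0.13, adjusted p = 0.312) and -0.38 (SE 0.12, adjusted p = 0.183). HNRNPK was nearly level, with 1281, 1265 and 1020 CPM in DMSO and 1246, 1205 and 1097 in E2 (log2 -0.01, SE 0.14). HNRNPM, a repressor and activator with GU-rich sites, was at 294, 324 and 419 CPM in DMSO and 457, 362 and 363 in E2. The fitted change was 0.19 (SE 0.19) for HNRNPM and 0.06 (SE 0.12) for HNRNPR, a relative of SYNCRIP.

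The U group holds scaffold-attachment proteins. HNRNPU was at 542, 651 and 888 CPM in DMSO and 978, 891 and 818 in E2. HNRNPUL2 was at 23.3, 33.1 and 56.3 CPM in DMSO and 50.9, 45.5 and 50.8 in E2. For both genes the DMSO libraries were spread widely and the E2 libraries were close together. Fitted changes were 0.38 (SE 0.21, adjusted p = 0.331) and 0.44 (SE 0.28, adjusted p = 0.390), and 0.05 (SE 0.14) for HNRNPUL1. With clone 2 left out, 5 genes were called: HNRNPA1L2, HNRNPCL2, HNRNPA3 (0.60, adjusted p = 0.0388), HNRNPU (0.66, adjusted p = 0.0254) and HNRNPUL2 (0.80, adjusted p = 3.75e-04). Over all genes that fit called 3353, beside 176 with every library. Without the clone 2 DMSO library alone, 3 were called: HNRNPA1L2, HNRNPA3 (adjusted p = 0.0416) and HNRNPUL2 (adjusted p = 0.0328), and 1704 of all genes were called.

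The change within a single line has no replicate check and was read as a log2 ratio with a threshold of 1.5-fold. In the parental line 6 of 33 genes were at least 1.5-fold higher in E2: HNRNPUL2 (2.18-fold), HNRNPU (1.80), HNRNPA2B1 (1.63), HNRNPA3 (1.61), HNRNPH1 (1.58) and HNRNPM (1.55). That is 18.2%, and all genes gave 21.5%. At least 1.5-fold lower were 5 (HNRNPA1L2, HNRNPC, HNRNPCL2, HNRNPLL and SRSF3), or 15.2%, and all genes gave 18.8%. Of these, HNRNPCL2 restates the filter. In clone 1 no gene was higher past the threshold (9.57% of all genes) and HNRNPA1L2 alone was lower (7.1% of all genes). Clone 2 had the same outcome, with none higher (9.35% of all genes) and HNRNPA1L2 lower (7.09% of all genes). The E2 difference was larger in the parental line than in both clones for 23 of 33 genes, or 69.7%, beside 64.8% of all genes. The other 10 genes past the threshold in the parental line were within 1.5-fold in both clones, and whether the lines differed was tested only by the interaction given further on.

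**Figure D4:**
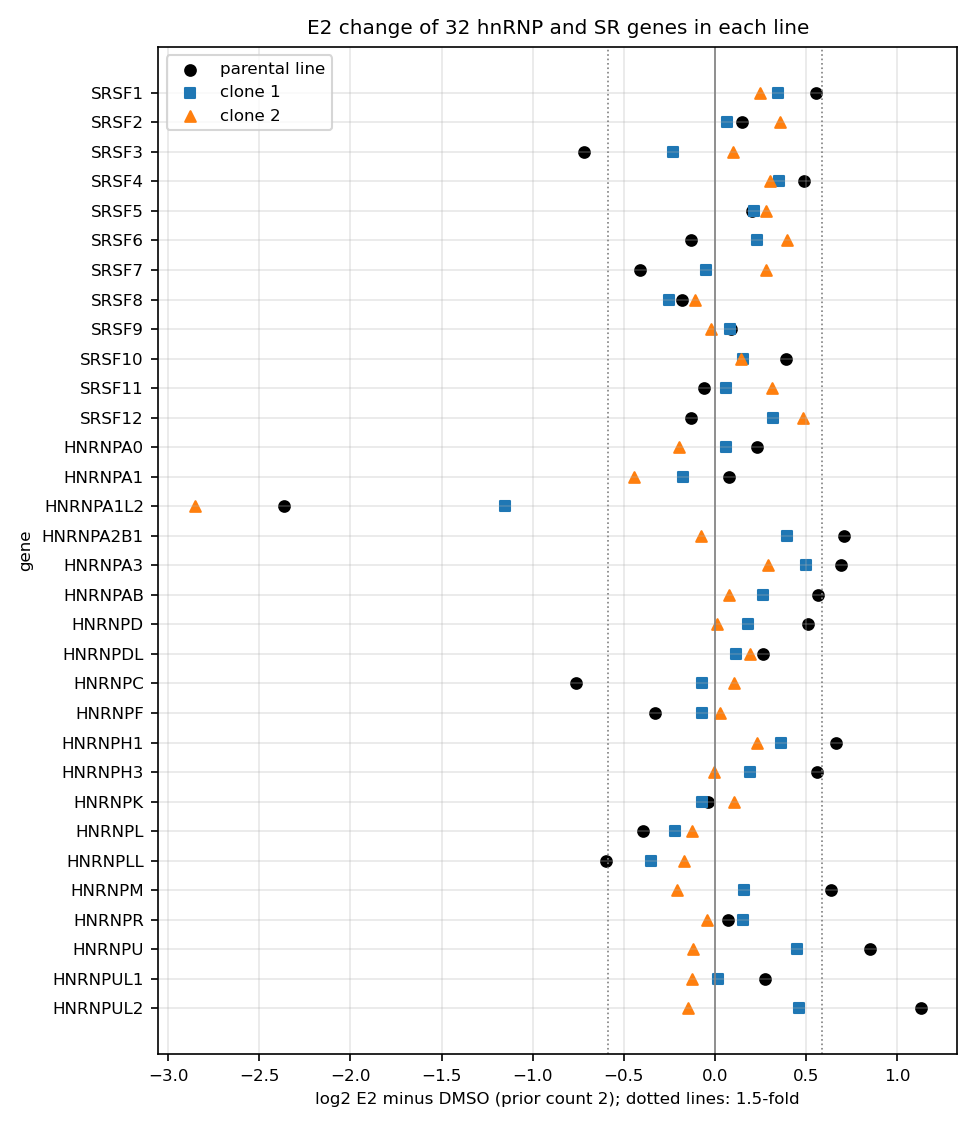
Log2 ratio of E2 to DMSO (x axis) in the parental line, clone 1 and clone 2, 1 row per gene for the 32 tested genes other than HNRNPCL2. Apart from HNRNPA1L2, all clone points lie within 1.5-fold of 0, and the parental points spread wider.

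The parental contrast moved with base composition over all genes. Tested genes were put in 5 equal bins by the GC content of their transcripts, known for 14607 of 15611 genes (93.6%). The median parental log2 ratio went from -0.30 in the bin lowest in GC to 0.35 in the highest. In clone 1 it went from -0.05 to 0.08 and in clone 2 from 0.06 to 0.01. The splicing factor genes had a median GC content of 43.9%, beside 49.8% for all tested genes, and none lay in the highest bin. After each library's trend on GC was removed, a correction chosen after seeing the data, the parental ratio was 1.07 for HNRNPU, 0.93 for HNRNPA2B1, 1.08 for HNRNPUL2, -0.60 for HNRNPC and -0.54 for SRSF3. SRSF6, SRSF11 and SRSF12, lower in parental E2 before, had corrected ratios of 0.13, 0.25 and 0.18, so their opposite sign between the parental line and the clones was gone. HNRNPA1L2 stayed at -2.22. At least 1.5-fold lower were then 3 genes in place of 5: HNRNPA1L2, HNRNPC and HNRNPCL2, of which HNRNPCL2 restates the filter. At least 1.5-fold higher were 7 in place of 6, with HNRNPH3 and SRSF10 added and HNRNPM lost. The share of all genes past the threshold after the correction was not counted.

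The second comparison asked which genes differed between the ETV4 knockout clones and the parental line over both treatments. None of the 33 passed, against 0.327% of all genes (edgeR quasi-likelihood test). DESeq2 also called none of them, against 2.95% of all genes. By limma-voom none of the 33 and 57 of all genes were called. An unadjusted p under 0.05 was found for HNRNPCL2 alone, against 11.4% of all genes. The largest fitted differences among genes of at least 10 CPM were -0.34 (SE 0.21, adjusted p = 0.528) for HNRNPC, -0.31 (SE 0.17, adjusted p = 0.493) for SRSF7, -0.31 (SE 0.19, adjusted p = 0.520) for SRSF3 and 0.40 (SE 0.30, adjusted p = 0.579) for HNRNPUL2. Without the parental DMSO library the fitted difference was 0.05 for HNRNPC, 0.02 for SRSF3 and -0.09 for HNRNPUL2, so these directions rest on that library. No gene had all 4 clone libraries above both parental ones (8.53% of all genes). SRSF7 and SRSF9 had all 4 below (7.8% of all genes), and SRSF9 ranged only from 64.8 to 69.5 CPM in the clones and from 72.0 to 76.5 in the parental line.

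Within each treatment the clones were set against the single parental library, with no test. In DMSO, clone 1 had no gene at least 1.5-fold higher (14% of all genes) and 2 lower, HNRNPA1L2 and HNRNPCL2 (7.94% of all genes). Clone 2 in DMSO had 3 higher, HNRNPA2B1, HNRNPU and HNRNPUL2 (22.4% of all genes), and 4 lower, HNRNPC, HNRNPCL2, SRSF3 and SRSF7 (19.6% of all genes). Both clones were below the parental line in DMSO for 16 of 33 genes, HNRNPCL2 among them, or 48.5%, beside 39.1% of all genes. They were above it for 13, or 39.4%, beside 42.3%. In E2, clone 1 had HNRNPCL2 higher (8.68% of all genes), at 1 count against 0, and none lower (7.35% of all genes). Clone 2 had HNRNPCL2 higher (8.74% of all genes) and HNRNPA1L2 lower (6.74% of all genes). In that treatment both clones were below the parental line for 20 of 33 genes, or 60.6%, beside 32.2% of all genes, and above it for 5, or 15.2%, beside 35.8%. The log2 differences of clone 1 and clone 2 were -0.23 and -0.21 for SRSF1, -0.34 and -0.33 for HNRNPM and -0.13 and -0.26 for HNRNPU. The furthest of the 20 from 0 was SRSF10 in clone 1, at -0.42, so all lay within 1.5-fold. They all share 1 parental E2 library, which was the highest of the 6 for 13 of 33 genes, or 39.4%, beside 15.9% of all genes. It was the lowest for HNRNPCL2 and HNRNPLL, or 6.06%, beside 17% of all genes.

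**Figure D5:**
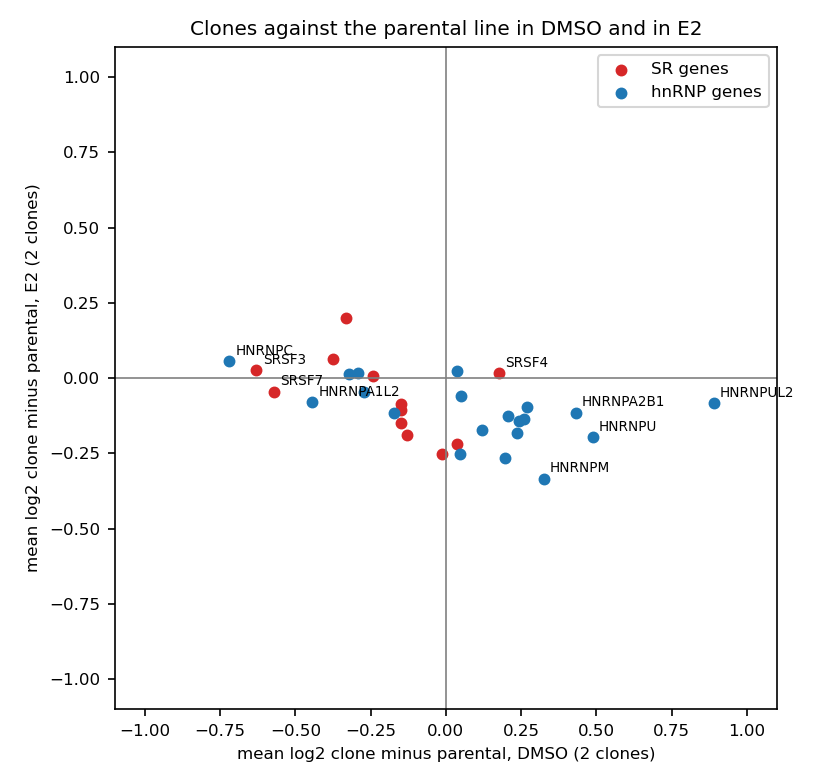
Mean log2 difference of the 2 clones from the parental line in DMSO (x axis) and in E2 (y axis), 1 point per gene for the 32 tested genes other than HNRNPCL2. Points spread along the DMSO axis, with HNRNPUL2 and HNRNPU at the right and HNRNPC, SRSF3 and SRSF7 at the left. They spread less along the E2 axis, where HNRNPM was at -0.34 in clone 1 and -0.33 in clone 2. A mean can hide opposite values: HNRNPA1L2 in E2 was at 0.52 in clone 1 and -0.68 in clone 2.

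Since ETV4 is an ETS factor, the 250 bases before each RefSeq start site were searched for the ETS sequence CCGGAAG on both strands. Of 38 genes, 35 had a promoter entry, and HNRNPA1, SRSF2 and HNRNPCL3 had none. The motif was in 5 of 35 promoters (14.3%), beside 14.6% of the promoters of all tested genes. The shorter core CGGAA, which CCGGAAG contains, was in 51.4% against 43.9%. The short estrogen-response sequence GGTCA was in 31.4% against 30.4%. The 5 promoters with CCGGAAG are shown so that the motif can be seen in place. Each is written along its gene, capitals mark CCGGAAG or its reverse complement CTTCCGG, and coordinates are those of GRCh38.p14.
HNRNPD, chr4:82374142-82374200, minus strand: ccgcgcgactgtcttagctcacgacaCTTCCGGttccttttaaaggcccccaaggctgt
HNRNPF, chr10:43408942-43409000, minus strand: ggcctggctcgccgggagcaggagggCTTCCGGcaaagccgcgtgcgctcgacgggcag
HNRNPLL, chr2:38602929-38602977, minus strand: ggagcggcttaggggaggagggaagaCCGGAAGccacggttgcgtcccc
SRSF4, chr1:29182109-29182150, minus strand: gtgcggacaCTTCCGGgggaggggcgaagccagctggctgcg
SRSF5, chr14:69767059-69767117, plus strand: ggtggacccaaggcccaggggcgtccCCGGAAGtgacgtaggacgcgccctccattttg

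The motif ended between 17 bases (HNRNPLL) and 235 bases (SRSF4) before the start site. The knockout differences of these 5 genes were 0.02 for HNRNPD, -0.14 for HNRNPF, -0.16 for HNRNPLL, 0.10 for SRSF4 and -0.12 for SRSF5, and none passed the test. A match is a run of letters in this window and no measure of binding.

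The third comparison asked whether the E2 change differed between the clones and the parental line. No gene of the 33 passed (0% of all genes as well), DESeq2 and limma-voom called none of them, and an unadjusted p under 0.05 was found for HNRNPC and HNRNPCL2, or 6.06% against 7.62% of all genes. Among genes averaging 10 CPM or more, the largest unblocked values included -1.03 for HNRNPUL2 (SE 0.45), -0.70 for HNRNPU (SE 0.35), -0.67 for HNRNPM (SE 0.32), 0.77 for HNRNPC (SE 0.32) and 0.65 for SRSF3 (SE 0.29), each with an adjusted p of 0.617. With the line as a block 3 were called (15.8% of all genes). HNRNPC had an interaction of 0.77 (SE 0.27, adjusted p = 0.0314) and HNRNPUL2 of -0.98 (SE 0.22, adjusted p = 4.21e-04), while the call of HNRNPCL2 follows from the library that let it pass the filter. A positive value means that the E2 to DMSO ratio was higher for the clones than for parental cells. This blocked fit leaves 1 residual degree of freedom. In it edgeR gave no gene a spread of its own, but a value shared between genes that may vary with abundance. With the GC correction and the block together 5 were called (12.1% of all genes): HNRNPA2B1 (-0.79), HNRNPH3 (-0.69), HNRNPU (-0.91), HNRNPUL2 (-0.94) and, by its selection, HNRNPCL2. HNRNPC was not among them (adjusted p = 0.0795). All of these interactions rest on the single parental DMSO library and the single parental E2 library.

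Other genes of the splicing pathway were read from lists. None passed in any of the 3 unblocked fits. Of 17 SR-related activators, which include TRA2B, SRRM1 and SON, all were tested, 0 were called for E2, and the median fitted change was 0.37. In the parental line 9 of the 17 were at least 1.5-fold higher in E2, in clone 1 it was 3 and in clone 2 it was 0. The shares of all genes past that threshold were 21.5% higher and 18.8% lower in the parental line, 9.57% higher in clone 1 and 9.35% higher in clone 2, for comparison with each list. Of 11 kinase and import genes for SR proteins, such as SRPK1, CLK1 and TNPO3, 2 were higher in the parental line and 1 in each clone. Among 33 hnRNP-like and other regulators found under their symbols (of 35), 4 were higher and 1 lower in the parental line. The 36 core spliceosome genes split evenly there, with 6 higher and 6 lower past 1.5-fold and none in either clone. Of 14 nonsense-mediated decay genes, through which the self-limiting transcript forms of SR genes are removed, 6 were higher in the parental line and none lower. With the line as a block the interaction called 6 core genes higher and 1 lower, 3 SR-related activators lower, 2 decay genes lower, 1 kinase or import gene lower, and 1 other regulator in each direction. In that fit 15.8% of all genes were called.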

How the data were processed

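Whole-number counts per gene were deposited by the authors for 6 poly(A)-selected libraries made with a stranded kit. The submitters' processing notes name HISAT2, SAMtools, Subread, DESeq2 and the genome build hg19. The annotation, the use of strand in counting and the treatment of multi-mapping reads are not given in the sources used here. Column names that write DMOS and ER were read as DMSO and E2. Genes are named by symbol, and no coordinates are given for the counted genes.

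Counts were tested in R 4.3.3 with edgeR 4.0.16 (TMM scaling, genes kept by filterByExpr over 4 genotype-treatment groups, quasi-likelihood test). P-values were adjusted by Benjamini-Hochberg over all 15611 tested genes at 0.05. The E2 and knockout effects came from 1 model with treatment and genotype, and their interaction from a second. Standard errors were derived by dividing each log2 coefficient's size by the root of its F value. Ratios between single libraries are log2 with a prior count of 2. The block was line as a fixed factor, or a random effect in limma 3.58.1 for the knockout effect. Labels pair the libraries by line: between the clones, differences in DMSO and E2 correlated with r = 0.626 over all tested genes and r = -0.09 over the 33 splicing factor genes.

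Values per library are given for genes called in any unblocked or blocked fit, for the 5 largest differences per direction and contrast with a mean of at least 10 CPM, and for 12 well-known members whatever their change. Members, lists and tests were chosen with earlier results of these data known. Alternatives were DESeq2 1.42.0, limma-voom, median-ratio scaling, 2 other filters, other prior counts and thresholds, and each library or line left out. The GC correction (lowess, span 0.3) and the sum of HNRNPA1 and HNRNPA1L2 were added after seeing the data. The fits were tested on simulated data with known changes. Coding sequences and GC content came from GENCODE v29 and promoters from RefSeq (GRCh38.p14).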

Additional observations from a re-analysis of the deposited data

Results flagged for a closer look

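The interaction of E2 with genotype passed the test in the fit with the line as a block for 3 of 33 genes (9.09%), beside 15.8% of all genes, and for 0 without the block. HNRNPUL2 had an interaction of -0.98 on the log2 scale and HNRNPC of 0.77, and HNRNPC lost its call with the GC correction added (adjusted p = 0.0795 by edgeR). The fitted value of 8.88 for HNRNPCL2 supports nothing. That gene passed the filter only through the parental DMSO library, all its other libraries held 0 or 1 count, and the value depends on the prior count.

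Outside the 38 genes, the antisense gene HNRNPU-AS1 had more signal in E2 than in DMSO. It stood at 5.445 CPM in parental DMSO, 8.02 in clone 1 and 13.7 in clone 2, and at 20.0, 16.1 and 28.0 CPM in E2, with no overlap. The fitted log2 change was 1.29 (SE 0.32, adjusted p = 0.128 by edgeR), and with the line as a block it was 1.29 (adjusted p = 0.0384). Since the use of strand in counting is not given, its reads and those of HNRNPU cannot be told apart where the genes overlap.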

How the results depend on the processing

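The count of genes called for E2 was 1 in the reported fit. It was 2 by DESeq2, 0 in the clones alone, 0 with HNRNPA1 and HNRNPA1L2 summed (with and without the block), and 0 to 5 with a library or clone left out. Over all genes the count was 176 in the reported fit, 1115 by DESeq2 and 40 to 3353 with a library or clone left out. The knockout count of 0 became 0 to 1 with a clone library or a clone left out, the 1 being HNRNPCL2. Over all genes that count was 51 in the reported fit and 6 to 996 with a clone library or a clone left out. Leaving out a parental library leaves 1 parental library, and no count is given for that case. The interaction count of 0 became 3 with the replicate block, 3 with the block and the sum, and 5 with the block and the GC correction. The block changed no call of the 33 genes for E2 or the knockout. For E2 it gave a call to HNRNPU-AS1, and for the interaction it gave calls in the other splicing lists. A 2-fold threshold left 1 gene higher in parental E2, HNRNPUL2 (11.3% of all genes), and 2 lower, HNRNPA1L2 and HNRNPCL2 (5.02% of all genes). Against the parental line in DMSO it left HNRNPCL2 lower in both clones and HNRNPUL2 higher in clone 2. In E2 it left 0 higher in clone 1, 0 higher in clone 2 and 0 lower in clone 2. For the clones against the parental line the share of all genes at 2-fold was not counted. HNRNPCL2 supports nothing here either. A prior count of 5 left 0 higher in both clones in E2, and the GC correction left 3 lower in parental E2, HNRNPCL2 among them. For neither was the share of all genes counted. Genes with all E2 libraries above or below all DMSO libraries numbered 7 and 3, beside 13.8% and 10.5% of all genes. With a line left out fewer libraries are compared, so more genes of any kind can separate. Without the parental line the splicing factor genes numbered 11 (33.3%) and 5 (15.2%), beside 20.5% and 18.6% of all genes. The 11 include HNRNPCL2, at 1 count in each clone library. Without a clone they numbered 10 to 16 and 3 to 8, and the share of all genes was not counted.

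Under these alternatives, the single genes that changed sign had not been called in the contrast concerned. With a library or clone left out, the knockout difference ran from -0.7102 to 0.0484 for HNRNPC, -0.6225 to 0.0159 for SRSF3, -0.5314 to 0.0312 for HNRNPA1L2, -0.0905 to 0.9426 for HNRNPUL2, -0.1224 to 0.4425 for HNRNPA2B1, -0.2042 to 0.5069 for HNRNPU and -0.1056 to 0.2767 for HNRNPH1. The sign turned each time without the parental DMSO library. It also turned for HNRNPU without the clone 2 DMSO library (-0.0043) and for HNRNPH1 without clone 2 (-3e-04). The E2 change of HNRNPC ran from -0.4153 to 0.0071, the latter without the parental E2 library. The interaction of HNRNPA1L2 ran from -0.267, without the clone 1 E2 library, to 0.9373. The cause was not tested. The simulated counts had the same spread for every gene, no differences between lines and no trend with GC content. On them 21 of 100 genes with a 2-fold and 96 of 100 with a 4-fold interaction were recovered. For a 2-fold E2 effect it was 98 of 100, and for a 2-fold knockout effect 100 of 100. Most 2-fold interactions were thus missed even in that setting. Recovery in the real libraries, which differ between lines, was not measured.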
